A study of Arabidopsis thaliana with 8 samples.

Results

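Transcripts of 10 genes for water channels, 6 plasma membrane intrinsic proteins (PIPs) and 4 tonoplast intrinsic proteins (TIPs), were examined in seedlings of Arabidopsis thaliana, out of 18855 genes listed in the deposited data. The genes were chosen by their identifiers to be set beside each other in 3 genotypes, and other listed PIP and TIP genes were left out. The choice was made with earlier results of these data known. Whole seedlings were sampled at 12 days. SPCHΔ49 basl-2 (n = 3) and SPCHΔ49 (n = 3) both carried the 35S:SPCHΔ49 transgene, the first of them in the basl-2 mutant, and WT (n = 2) carried neither. SPCH is the transcription factor that starts the stomatal lineage, the truncated form resists the phosphorylation that marks the protein for degradation, and BASL is a polarity protein of that lineage. The 35S promoter is active in most plant tissues, and where the transgene was expressed in these seedlings was not measured. No sample carried basl-2 without the transgene, so basl-2 was compared only within plants that overexpress SPCHΔ49. How many independent lines stand behind a genotype was not given in the sources used here. Separate growth of the replicates is not stated either, and p-values therefore measure only the spread between these samples, which may be technical.

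Aquaporins are membrane channels that let water, and for some members small solutes such as urea, ammonia, hydrogen peroxide or carbon dioxide, pass along a gradient. PIPs sit in the plasma membrane and TIPs in the membrane of the vacuole, so that together they lie on the path of water through roots and leaves and into the vacuole of expanding cells. PIP1 proteins assemble with PIP2 proteins, and in maize they need such a partner to reach the plasma membrane. Genes are written as the deposited files name them, where a hyphen stands in place of the usual semicolon (PIP1-1 is PIP1;1), and where PIP1B is PIP1;2 and PIP2B is PIP2;2.

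Signal is the deposited value per gene, which the authors named TPM, a unit defined per transcript length. The scaling behind the values is not stated, and levels of different genes are set side by side by that name alone. Over all listed genes it added up to 852202 to 1075376 in a library, and the median gene had 12.3 to 13.6. Read numbers are not given, so the depth is unknown. SPCH averaged 407 ± 74.9 in SPCHΔ49 basl-2, 2491 ± 136 in SPCHΔ49 and 6.92 ± 1.80 in WT (SD, n = 3, 3 and 2). The overexpressing genotypes thus also differed from each other in SPCH signal, which does not separate the transgene from the native gene. BASL averaged 2.74 ± 0.581 in SPCHΔ49 basl-2, 51.0 ± 13.6 in SPCHΔ49 and 3.43 ± 0.127 in WT. Of 14 root markers 13 were listed, and their summed signal was 22.5 to 29.2 in SPCHΔ49 basl-2 and 12.6 to 28.9 in SPCHΔ49, against 192 to 206 in WT. COBL9 and EXPA18 were at 0 in every SPCHΔ49 basl-2 library, and EXPA7 and EXPA18 in every SPCHΔ49 library. The 7 guard cell markers summed to 148 to 164 in SPCHΔ49 basl-2 and 121 to 139 in SPCHΔ49, against 49.0 to 57.5 in WT. In SPCHΔ49, KAT1 did not rise, with 3.98, 4.17 and 5.46 against 4.96 and 4.83 in WT. The other guard cell markers there lay above WT in every library. The 10 vascular markers summed to 117 to 165 in SPCHΔ49 basl-2 and 115 to 141 in SPCHΔ49, against 219 to 230 in WT. In SPCHΔ49 basl-2, SUC2 at 93.8% and APL at 92.6% of WT overlapped WT, and the other vascular markers lay below it. In SPCHΔ49 all of the vascular markers lay below WT. The 8 mesophyll markers summed to 34434 to 40255 in SPCHΔ49 basl-2 and 24021 to 31971 in SPCHΔ49, against 49301 to 49532 in WT. In SPCHΔ49 basl-2, LHCA1 at 147% and GAPA1 at 109% of WT went the other way, with every library above WT. The other mesophyll markers there lay below WT. Fewer cells of a type and less RNA per cell cannot be told apart in such whole-seedling RNA.

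The aquaporin genes moved in both directions. Against WT, limma called 3 of the 10 genes higher and 3 lower in SPCHΔ49 basl-2, at an adjusted p under 0.05 over all genes, where 12.6% of the listed genes were called higher and 21.6% lower (34.3% in all). In SPCHΔ49 it called 0 higher and 5 lower against WT, where 9.9% of the listed genes were called higher and 17.3% lower (27.2% in all). At an unadjusted limma p under 0.05 the counts in SPCHΔ49 were 0 and 6, where 3203 and 4392 of the 18855 listed genes passed. Between the overexpressing genotypes, 4 PIP genes were higher in SPCHΔ49 basl-2 than in SPCHΔ49 and 0 genes were lower, where 2.05% of the listed genes were called higher and 3.36% lower (5.41% in all). At an unadjusted limma p under 0.05 the counts were 6 and 0, where 1780 and 2340 of the 18855 listed genes passed. The median log2 fold change of the 10 genes was 0.06 in SPCHΔ49 basl-2 against WT, -0.69 in SPCHΔ49 against WT and 0.59 in SPCHΔ49 basl-2 against SPCHΔ49, where the median over all genes was -0.06, -0.01 and -0.03. The libraries of SPCHΔ49 basl-2 lay wholly above WT for 4 genes and wholly below it for 4, where 26.5% of the listed genes lay above and 35.5% below (62% in all). Those of SPCHΔ49 lay wholly above WT for 1 gene and below it for 6, where 28.2% of the listed genes lay above and 32.7% below (60.9% in all). Those of SPCHΔ49 basl-2 lay wholly above SPCHΔ49 for 4 genes and below it for 0, where 10.7% of the listed genes lay above and 15% below (25.7% in all). The comparisons with WT share the same 2 WT libraries. Without WT replicate 1 or 2, the lower genes numbered 2 or 3 in SPCHΔ49 against WT and 1 in SPCHΔ49 basl-2 against WT, and the higher genes in SPCHΔ49 basl-2 against WT numbered 0, while the share of all genes called dropped to 6.18% or 6.27% in SPCHΔ49 and to 8.96% or 9.66% in SPCHΔ49 basl-2. TIP2-3 fails the filter in those fits. Without SPCHΔ49 basl-2 replicate 1 the higher genes against WT numbered 1. All 10 genes passed the filter on low values, which removed 0 listed genes. In the plot of the signal in each library, the points of PIP2-7 and TIP2-1 spread more widely in both overexpressing genotypes than in WT.

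**Figure D1:**
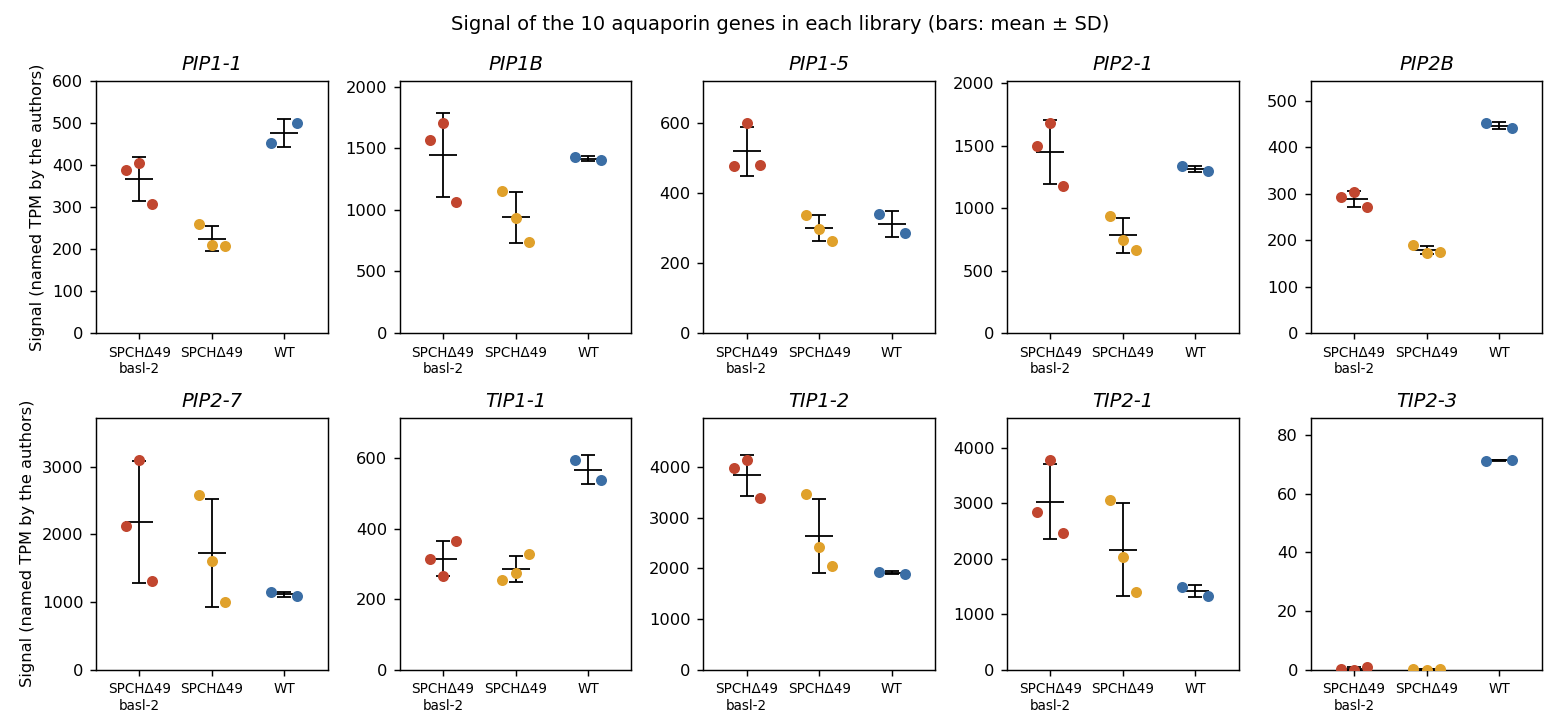
Deposited signal (vertical axis, linear, from 0) of each of the 10 genes in every library, with SPCHΔ49 basl-2, SPCHΔ49 and WT from left to right; points are libraries, long bars are means and short bars mark 1 SD. PIP2B and TIP1-1 lie below WT in both overexpressing genotypes, TIP1-2 lies above WT in both, and TIP2-3 lies near 0 in both against 71.2 and 71.6 in WT.

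The genes called in the same direction in both comparisons with WT were TIP2-3, TIP1-1 and PIP2B, all lower. The promoters of TIP2-3 and TIP1-1, of TIP2-1 (the TIP gene with the highest fold change in SPCHΔ49 basl-2) and of PIP1-1 (lower in SPCHΔ49) are printed to show the start regions of genes that differ in direction. Each runs from 250 bases before to 50 bases after the annotated gene start, on the gene's strand, from the TAIR10.1 genome in RefSeq. Capitals mark CANNTG, the E-box that basic helix-loop-helix factors such as SPCH recognise, CACGTG, the G-box form of it, and ACGTG, the core of abscisic acid response elements, on either strand (CACGT on the printed strand is ACGTG on the other). TIP2-3 is at chr5:19249573-19249872 on the minus strand, TIP1-1 at chr2:15445044-15445343 on the plus strand, TIP2-1 at chr3:5505110-5505409 on the plus strand and PIP1-1 at chr3:22732993-22733292 on the plus strand.
TIP2-3: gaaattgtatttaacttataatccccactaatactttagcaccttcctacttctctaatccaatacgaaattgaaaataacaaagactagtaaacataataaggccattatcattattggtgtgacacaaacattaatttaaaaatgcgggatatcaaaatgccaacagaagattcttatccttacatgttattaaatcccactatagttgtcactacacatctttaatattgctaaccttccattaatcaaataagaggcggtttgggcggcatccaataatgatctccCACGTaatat
TIP1-1: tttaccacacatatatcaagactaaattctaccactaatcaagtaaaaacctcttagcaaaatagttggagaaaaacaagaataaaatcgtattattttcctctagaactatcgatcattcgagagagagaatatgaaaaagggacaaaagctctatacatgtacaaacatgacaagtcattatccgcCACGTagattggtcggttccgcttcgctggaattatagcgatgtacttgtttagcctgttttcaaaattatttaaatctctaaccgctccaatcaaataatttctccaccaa
TIP2-1: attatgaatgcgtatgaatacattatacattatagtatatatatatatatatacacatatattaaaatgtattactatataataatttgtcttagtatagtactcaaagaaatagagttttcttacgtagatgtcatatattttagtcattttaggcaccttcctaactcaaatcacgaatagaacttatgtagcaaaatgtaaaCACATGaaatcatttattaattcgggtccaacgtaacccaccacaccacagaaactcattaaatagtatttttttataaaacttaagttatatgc
PIP1-1: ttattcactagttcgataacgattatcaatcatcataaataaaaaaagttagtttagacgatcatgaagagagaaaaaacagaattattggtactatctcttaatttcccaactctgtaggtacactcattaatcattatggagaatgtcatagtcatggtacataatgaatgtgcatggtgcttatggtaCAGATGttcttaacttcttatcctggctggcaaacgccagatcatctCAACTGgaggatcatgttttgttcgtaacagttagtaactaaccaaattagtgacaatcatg
In these windows TIP2-3 and TIP1-1 each held 1 ACGTG and 0 CANNTG, TIP2-1 held 1 CANNTG and PIP1-1 held 2. Over the 10 genes, CANNTG was present in 3 (PIP1-1, PIP1B and TIP2-1), CACGTG in 0, and ACGTG in 2. PIP2B, also lower in both comparisons with WT but not printed, held 0 of each motif, as did TIP1-2 and PIP1-5. Among 18750 promoters of listed genes, 62.4% held CANNTG, 8.93% CACGTG and 27.9% ACGTG, where every CACGTG also counts as the other 2 motifs. A match is only a string of letters in this window.

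Among the PIP1 genes, PIP1-1 was lower in SPCHΔ49 than in WT, PIP1-5 was higher in SPCHΔ49 basl-2 than in WT, and PIP1B passed neither test. PIP1-1 (AT3G61430, chr3:22733243-22735394 in TAIR10.1) had signals of 389, 406 and 308 in SPCHΔ49 basl-2, 259, 209 and 207 in SPCHΔ49, and 453 and 500 in WT. All libraries of each overexpressing genotype lay below WT, and the SPCHΔ49 libraries lay lowest. The log2 fold change was -1.09 (SE 0.16) in SPCHΔ49 against WT at a limma adjusted p of 0.00285, and -0.38 (95% interval -0.76 to -0.01) in SPCHΔ49 basl-2 against WT with an adjusted p of 0.101. When every library was scaled to the same total, limma called PIP1-1 lower in SPCHΔ49 basl-2 too, with an adjusted p of 0.0298.

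PIP1B (AT2G45960, chr2:18910081-18911982), a PIP1 whose loss lowers hydraulic conductance in roots and rosettes, had 1568, 1706 and 1061 in SPCHΔ49 basl-2, 1152, 933 and 737 in SPCHΔ49, and 1432 and 1403 in WT. The SPCHΔ49 libraries lay below WT and the SPCHΔ49 basl-2 libraries lay on both sides of it. limma gave a log2 fold change of -0.61 (95% interval -1.21 to -0.02) in SPCHΔ49 against WT with an adjusted p of 0.117, and of -0.00 (-0.60 to 0.60) in SPCHΔ49 basl-2 against WT with an adjusted p of 0.997. PIP1-5 (AT4G23400, chr4:12220641-12222468) had 478, 601 and 482 in SPCHΔ49 basl-2, 337, 299 and 263 in SPCHΔ49, and 340 and 287 in WT. Every SPCHΔ49 basl-2 library lay above every other library, while SPCHΔ49 and WT overlapped. Its log2 fold change was 0.73 (SE 0.16) in SPCHΔ49 basl-2 against WT, at a limma adjusted p of 0.0125, and -0.07 (95% interval -0.44 to 0.31) in SPCHΔ49 against WT, with 0.784. Without WT replicate 1 the adjusted p for PIP1-5 in SPCHΔ49 basl-2 against WT was 0.0555, and without WT replicate 2 it was 0.110.

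Among the PIP2 genes, PIP2B was lower in both overexpressing genotypes than in WT, and PIP2-1 was lower in SPCHΔ49. PIP2B (AT2G37170, chr2:15613368-15615022), which contributes to water uptake by root cells, had 292, 304 and 270 in SPCHΔ49 basl-2, 189, 172 and 175 in SPCHΔ49, and 452 and 440 in WT. The 3 genotypes did not overlap, and SPCHΔ49 had the lowest level. The log2 fold change was -0.63 (SE 0.09) in SPCHΔ49 basl-2 against WT, at a limma adjusted p of 0.00279, and -1.32 (SE 0.09) in SPCHΔ49 against WT, with 9.20e-05. PIP2-1 (AT3G53420, chr3:19803473-19805730), a main PIP2 of roots and leaf veins that also acts in guard cells, had 1497, 1680 and 1176 in SPCHΔ49 basl-2, 935, 744 and 666 in SPCHΔ49, and 1332 and 1298 in WT. The SPCHΔ49 libraries lay below all others, and SPCHΔ49 basl-2 overlapped WT. limma gave a log2 fold change of -0.76 (SE 0.20) in SPCHΔ49 against WT, at a limma adjusted p of 0.0290, and 0.13 (95% interval -0.35 to 0.60) in SPCHΔ49 basl-2 against WT, with 0.658. For PIP2-1 in SPCHΔ49 against WT the adjusted p was 0.161 and 0.144 without WT replicate 1 or 2, 0.0904 and 0.0653 without SPCHΔ49 replicate 2 or 3, and 0.0511 without SPCHΔ49 basl-2 replicate 1.

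PIP2-7 (AT4G35100, chr4:16708361-16710407), a PIP2 of roots and leaves whose transcript is known to fall in salt, did not pass the test in any comparison. It had 2129, 3102 and 1313 in SPCHΔ49 basl-2, 2583, 1599 and 999 in SPCHΔ49, and 1142 and 1085 in WT. The SPCHΔ49 basl-2 libraries all lay above WT, and SPCHΔ49 lay on both sides of it with the widest spread for its mean among the PIP genes. For PIP2-7 the log2 fold change was 0.88 (95% interval -0.19 to 1.96) in SPCHΔ49 basl-2 against WT, at a limma adjusted p of 0.174, and 0.53 (-0.55 to 1.60) in SPCHΔ49 against WT, with 0.429.

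Of the TIP genes, TIP2-3 was nearly lost and TIP1-1 was lower in both overexpressing genotypes, whereas TIP1-2 and TIP2-1 were higher in SPCHΔ49 basl-2. TIP2-3 (AT5G47450, chr5:19248249-19249622), a TIP expressed chiefly in roots that also conducts ammonia, had 0.333, 0.0631 and 0.823 in SPCHΔ49 basl-2, 0.108, 0.0714 and 0.137 in SPCHΔ49, and 71.2 and 71.6 in WT. The mean was 0.569% of WT in SPCHΔ49 basl-2 and 0.148% of WT in SPCHΔ49, and among the root markers the median was 0.841% and 1.13% of WT; the part of root tissue in this result was not tested. The pseudocount of 1 makes the fitted change of such low values too small. The fitted log2 fold change was -5.72 (SE 0.21) in SPCHΔ49 basl-2 against WT, at a limma adjusted p of 9.40e-06, and -6.03 (SE 0.21) in SPCHΔ49 against WT, with 8.41e-06. The mean signal of TIP2-3 ranked 18207 of the 18855 genes in SPCHΔ49 basl-2, 18572 in SPCHΔ49 and 2100 in WT.

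TIP1-1 (AT2G36830, chr2:15445294-15446621), an abundant vacuolar channel for water, had 314, 266 and 366 in SPCHΔ49 basl-2, 255, 274 and 328 in SPCHΔ49, and 595 and 537 in WT. All 6 overexpressing libraries lay below both WT libraries, and the overexpressing genotypes overlapped each other. The log2 fold change was -0.85 (SE 0.17) in SPCHΔ49 basl-2 against WT, at a limma adjusted p of 0.00817, and -0.99 (SE 0.17) in SPCHΔ49 against WT, with 0.00518. Without WT replicate 1 the adjusted p for TIP1-1 was 0.0811 in SPCHΔ49 basl-2 and 0.0694 in SPCHΔ49, and without WT replicate 2 it was 0.0540 in SPCHΔ49 basl-2.

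TIP1-2 (AT3G26520, chr3:9722443-9723904), the close relative of TIP1-1, went the other way. It had 3981, 4142 and 3383 in SPCHΔ49 basl-2, 3464, 2414 and 2038 in SPCHΔ49, and 1933 and 1892 in WT. All 6 overexpressing libraries lay above both WT libraries. Its log2 fold change was 0.998 (SE 0.24) in SPCHΔ49 basl-2 against WT, at a limma adjusted p of 0.0181, and 0.43 (95% interval -0.14 to 0.99) in SPCHΔ49 against WT, with 0.227. In SPCHΔ49 against WT the adjusted p for TIP1-2 was 0.00995 after quantile normalization and 0.0481 after scaling to equal totals. In SPCHΔ49 basl-2 against WT it was 0.102 and 0.104 without WT replicate 1 or 2, and 0.0549 without SPCHΔ49 basl-2 replicate 1.

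TIP2-1 (AT3G16240, chr3:5505360-5507050), a TIP of shoots and vascular tissue that conducts water and ammonia, had 2847, 3788 and 2463 in SPCHΔ49 basl-2, 3069, 2026 and 1403 in SPCHΔ49, and 1493 and 1336 in WT. The SPCHΔ49 basl-2 libraries all lay above WT, and SPCHΔ49 replicate 3 fell between the WT libraries. For TIP2-1 the log2 fold change was 1.08 (SE 0.34) in SPCHΔ49 basl-2 against WT, at a limma adjusted p of 0.0435, and 0.54 (95% interval -0.24 to 1.33) in SPCHΔ49 against WT, with 0.269. In SPCHΔ49 basl-2 against WT the adjusted p for TIP2-1 was 0.153 and 0.196 without WT replicate 1 or 2, 0.0750 without SPCHΔ49 replicate 2, and 0.0926 and 0.0989 without SPCHΔ49 basl-2 replicate 1 or 2. 

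**Figure D2:**
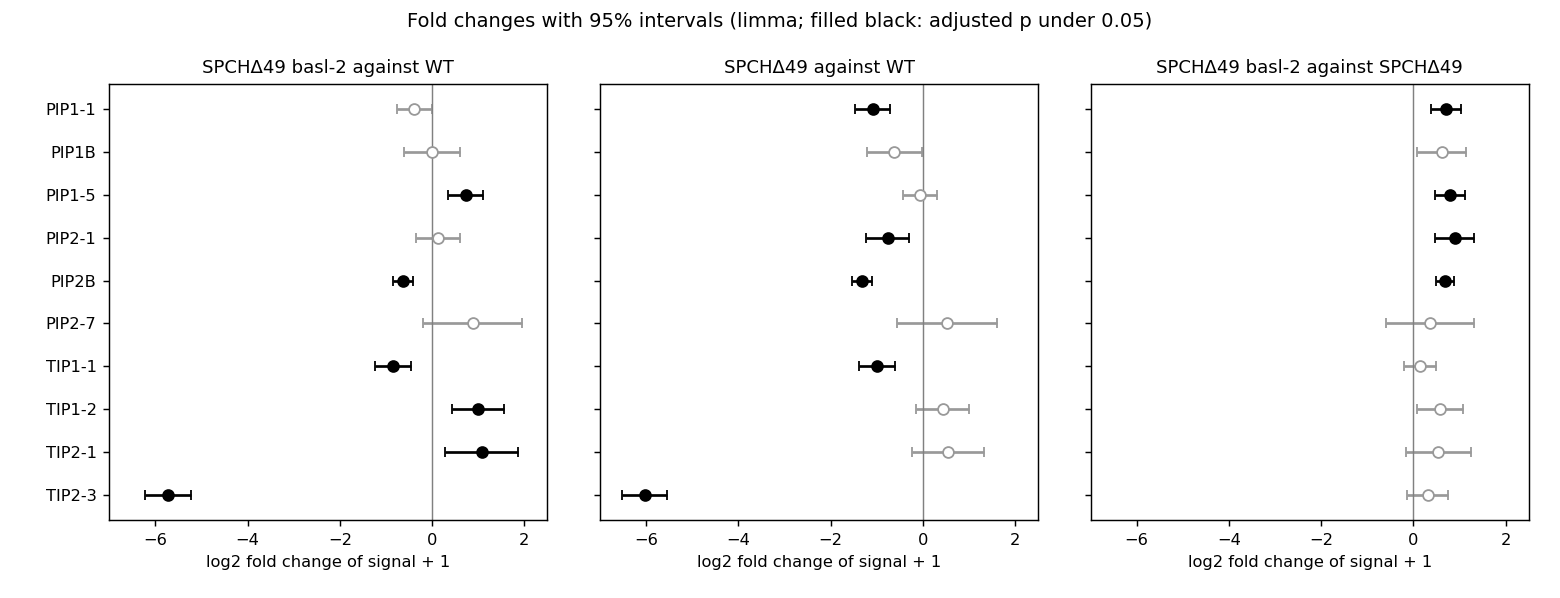
log2 fold change of signal + 1 (horizontal axis) of the 10 genes in SPCHΔ49 basl-2 against WT, SPCHΔ49 against WT and SPCHΔ49 basl-2 against SPCHΔ49, with 95% intervals from limma; filled black points passed an adjusted p of 0.05. TIP2-3 stands apart at -5.72 and -6.03 against WT, and in the comparison of SPCHΔ49 basl-2 with SPCHΔ49 all 10 estimates are above 0, of which 4 passed.

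Within the overexpressing plants, 4 of the 6 PIP genes were higher with basl-2 than without it. The 4 genes that passed in SPCHΔ49 basl-2 against SPCHΔ49 were PIP2-1, PIP1-5, PIP1-1 and PIP2B, whose libraries did not overlap between the genotypes. Their log2 fold changes were 0.89 (SE 0.18) for PIP2-1, 0.79 (SE 0.14) for PIP1-5, 0.70 (SE 0.14) for PIP1-1 and 0.69 (SE 0.08) for PIP2B. The limma adjusted p was 0.0392 for PIP2-1, 0.0265 for PIP1-5, 0.0392 for PIP1-1 and 0.00746 for PIP2B. PIP1B had a fold change of 0.61 (95% interval 0.077 to 1.149) with an adjusted p of 0.176, and PIP2-7 of 0.36 (-0.60 to 1.32) with 0.668. None of the 4 TIP genes passed: TIP1-2 had 0.57 (0.07 to 1.07), TIP2-1 0.53 (-0.17 to 1.24), TIP2-3 0.31 (-0.13 to 0.76) and TIP1-1 0.14 (-0.21 to 0.48), with limma adjusted p of 0.179, 0.350, 0.389 and 0.651. SPCH itself was lower in SPCHΔ49 basl-2 than in SPCHΔ49, at 407 against 2491, so basl-2 and the SPCH level cannot be told apart in this comparison. Without SPCHΔ49 replicate 2 the share of all genes called fell to 0.801%, PIP2B had an adjusted p of 0.0596, and 0 of the 10 genes passed. Without SPCHΔ49 replicate 3, SPCHΔ49 basl-2 replicate 1 or 2, or WT replicate 1 or 2, PIP2B alone of the 4 passed. Over these 6 left-out libraries the adjusted p ran from 0.0755 to 0.160 for PIP1-1, 0.0506 to 0.121 for PIP1-5 and 0.0766 to 0.157 for PIP2-1.

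Relative to PIP signal, TIP signal was higher in each overexpressing library than in either WT library. The 4 TIP genes summed to 7183 ± 993 in SPCHΔ49 basl-2, 5090 ± 1544 in SPCHΔ49 and 3965 ± 181 in WT (SD, n = 3, 3 and 2), and the 6 PIP genes to 6254 ± 1596, 4152 ± 1216 and 5082 ± 97.1 in the same order. The TIP sum divided by the PIP sum was 1.12, 1.05 and 1.35 in SPCHΔ49 basl-2, 1.24, 1.19 and 1.24 in SPCHΔ49, and 0.795 and 0.765 in WT. Over these 10 genes TIP signal thus exceeded PIP signal in all 6 overexpressing libraries and fell short of it in both WT libraries. Over all listed TIP and PIP genes, which include PIP1-3, TIP signal was below PIP signal in all 8 libraries, and the ratio was 0.863, 0.823 and 0.995 in SPCHΔ49 basl-2, 0.968, 0.891 and 0.895 in SPCHΔ49, and 0.646 and 0.625 in WT. TIP1-2 divided by TIP1-1 was 12.7, 15.6 and 9.25 in SPCHΔ49 basl-2, 13.6, 8.81 and 6.21 in SPCHΔ49, and 3.25 and 3.52 in WT. PIP2-7 divided by PIP2B was 7.30, 10.2 and 4.86 in SPCHΔ49 basl-2, 13.7, 9.30 and 5.72 in SPCHΔ49, and 2.53 and 2.46 in WT. Scaling a library by 1 factor leaves these ratios as they are, whereas quantile normalization can change them. Ratios show unequal change and are given without a test.

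**Figure D3:**
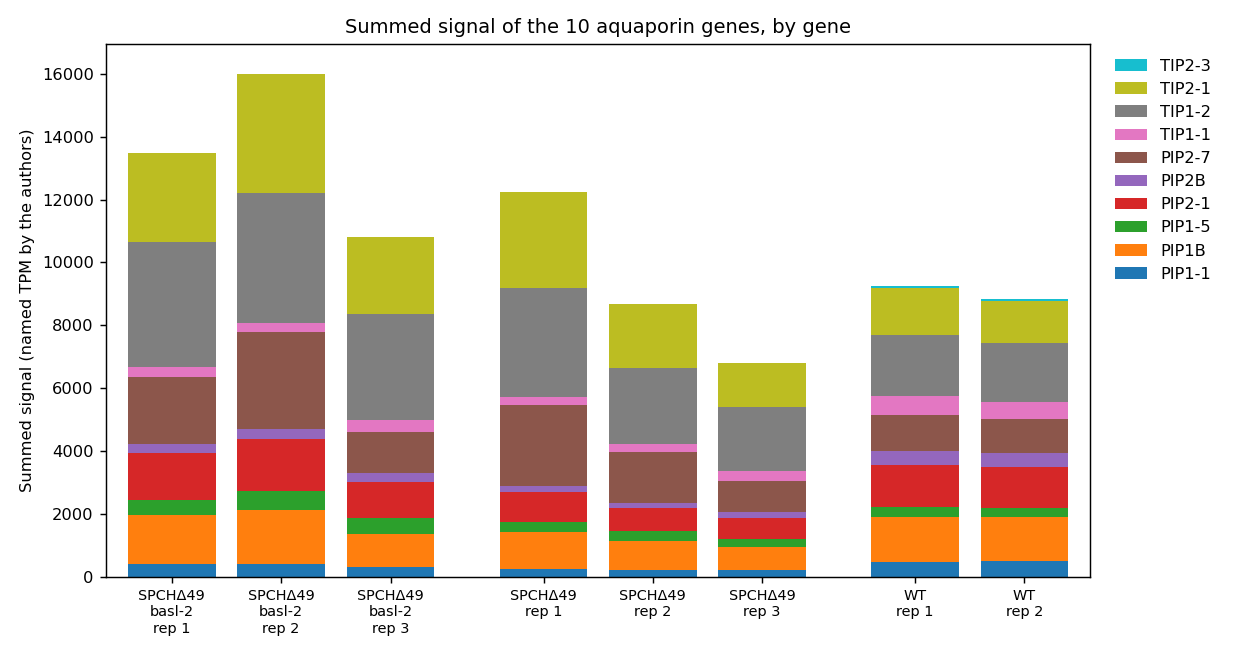
Summed signal (vertical axis, linear, from 0) of the 10 genes in each library, stacked by gene, with SPCHΔ49 basl-2, SPCHΔ49 and WT from left to right. The stacks reach 10822 to 15994 in SPCHΔ49 basl-2, 6815 to 12243 in SPCHΔ49 and 8850 to 9244 in WT, with wider TIP1-2 bands and narrower TIP1-1 bands in all 6 overexpressing libraries than in WT; the TIP2-1 band is wider than in WT in every overexpressing library except SPCHΔ49 replicate 3.

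The replicates of the overexpressing genotypes were not alike. Within SPCHΔ49, replicate 1 was highest and replicate 3 lowest for PIP2-7, TIP1-2 and TIP2-1, and the order was the opposite for TIP1-1. Within SPCHΔ49 basl-2, replicate 2 was highest and replicate 3 lowest for the first 3 of these genes, and again the opposite for TIP1-1. The summed signal of all listed genes in SPCHΔ49 was 953620, 882207 and 852202, and the mesophyll markers summed to 31971, 25596 and 24021, in the order of the replicates. In SPCHΔ49 basl-2 the listed genes summed to 1075376, 1064364 and 959355 and the mesophyll markers to 40255, 34434 and 35352. Whether these differences between libraries bear on the aquaporin values was not tested.

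The order of levels also differed between genotypes. TIP1-2 had the highest level of the 10 genes and TIP2-3 the lowest in all 3 genotypes. In SPCHΔ49 basl-2 the order went on with TIP2-1, PIP2-7, PIP2-1 and PIP1B, and in SPCHΔ49 with TIP2-1, PIP2-7, PIP1B and PIP2-1, where each of these 5 genes overlapped its neighbour. In WT, PIP1B (1417 ± 20.5) and TIP2-1 (1415 ± 111) followed TIP1-2 (1913 ± 29.2) and overlapped each other, and PIP2-1 and PIP2-7 came next. TIP1-1 ranked 8 of 10 in SPCHΔ49 basl-2, 7 in SPCHΔ49 and 6 in WT. PIP1-5 ranked 6 in both overexpressing genotypes and 9 in WT. Among all listed genes the mean of TIP1-2 ranked 26 in SPCHΔ49 basl-2, 28 in SPCHΔ49 and 50 in WT, and that of TIP2-1 ranked 34, 40 and 69. The 10 genes together held 1.13% to 1.503% of the listed signal in SPCHΔ49 basl-2, 0.800% to 1.28% in SPCHΔ49 and 0.875% to 0.917% in WT.

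Closely related copies can share reads, and how the authors' quantification divided them was not tested. In the TAIR10.1 transcripts, 24.26% of the 31-base words of PIP2B also occurred in PIP2-3, its neighbour on chromosome 2. Their coding sequences, of 987 and 858 bases, were 94.76% identical over the 858 bases that aligned. PIP2-3 had 116, 122 and 88.5 in SPCHΔ49 basl-2, 63.8, 60.7 and 58.4 in SPCHΔ49, and 148 and 128 in WT, the same order of genotypes as PIP2B. For TIP2-1 7.765% of the words were shared, with the overlapping gene AT3G16250. The other PIP members shared at most 2.371% of their words with any other gene, TIP1-2 shared 0.4762%, and TIP1-1 and TIP2-3 shared 0. TIP1-1 and TIP1-2, called in opposite directions in SPCHΔ49 basl-2 against WT, were 81.75% identical in coding sequence, and PIP1-1 and PIP1B were 87.57% identical.

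The Arabidopsis aquaporin family has 35 genes, of which 29 were listed and 6 were not, and the 10 genes held 83.0% to 87.3% of all listed aquaporin signal. Of the 19 others, limma called 2 higher and 8 lower in SPCHΔ49 basl-2 against WT, and also 2 and 8 in SPCHΔ49 against WT. Among all listed genes 12.6% were called higher and 21.6% lower in the first comparison, and 9.9% and 17.3% in the second. TIP4-1, a TIP of roots, had 0.199, 0 and 0.751 in SPCHΔ49 basl-2, 0.161, 0.426 and 0.364 in SPCHΔ49, and 9.90 and 14.4 in WT. PIP2-4, a PIP of root hairs and roots, had 2.90, 1.18 and 2.13 in SPCHΔ49 basl-2, 1.51, 2.44 and 2.42 in SPCHΔ49, and 24.0 and 24.3 in WT. Both thus lay far below WT in all 6 overexpressing libraries, as TIP2-3 did. Their log2 fold changes were -3.34 (SE 0.26) and -3.30 (SE 0.26) for TIP4-1 and -3.07 (SE 0.26) and -3.02 (SE 0.26) for PIP2-4, in SPCHΔ49 basl-2 and SPCHΔ49 against WT, with limma adjusted p between 0.000151 and 0.000225. TIP2-2, which is 83.24% identical to TIP2-3 in coding sequence, had 110, 61.8 and 91.2 in SPCHΔ49 basl-2, 33.8, 30.4 and 37.2 in SPCHΔ49, and 178 and 198 in WT. Without either WT library the others called lower numbered 2 in SPCHΔ49 basl-2 and 4 in SPCHΔ49, and TIP4-1 fails the filter.

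Other members of the family rose. PIP2-5 had 14.0, 10.9 and 11.3 in SPCHΔ49 basl-2, 36.1, 31.6 and 29.03 in SPCHΔ49, and 6.73 and 9.20 in WT, so it was highest in SPCHΔ49. Its log2 fold change was 0.55 (SE 0.17) in SPCHΔ49 basl-2 against WT, at a limma adjusted p of 0.0426, and 1.90 (SE 0.17) in SPCHΔ49 against WT, with 0.000290. The first of these was 0.0524 to 0.273 when any library but SPCHΔ49 replicate 1 or 3 was left out, so that 1 or 2 of the others were then called higher in SPCHΔ49 basl-2 against WT. PIP2-6 was higher in SPCHΔ49 basl-2 than in WT by 0.76 (SE 0.11) on the log2 scale, at a limma adjusted p of 0.00212. NIP1-2, of the nodulin-26-like subfamily, was higher in SPCHΔ49 than in WT by 0.86 (SE 0.10), with 0.000827. NIP1-1, another of that subfamily, had 0.194, 0.0613 and 0.267 in SPCHΔ49 basl-2, 2.62, 2.79 and 1.25 in SPCHΔ49, and 8.84 and 11.5 in WT, and did not overlap between any of the genotypes. In SPCHΔ49 basl-2 against SPCHΔ49, 2.05% of all listed genes were called higher and 3.36% lower. Of the 19 others, 3 were called higher there (TIP2-2, PIP2-3 and PIP2-6) and 3 lower (NIP1-2, PIP2-5 and NIP1-1). The higher ones numbered 0 with SPCHΔ49 basl-2 replicate 1 or SPCHΔ49 replicate 2 left out, and 1 with replicate 2 of SPCHΔ49 basl-2 or replicate 3 of SPCHΔ49 left out. NIP1-1 had an adjusted p of 0.0552 to 0.0820 with replicate 1 or 2 of SPCHΔ49 basl-2 or replicate 2 of SPCHΔ49 left out.

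**Figure D4:**
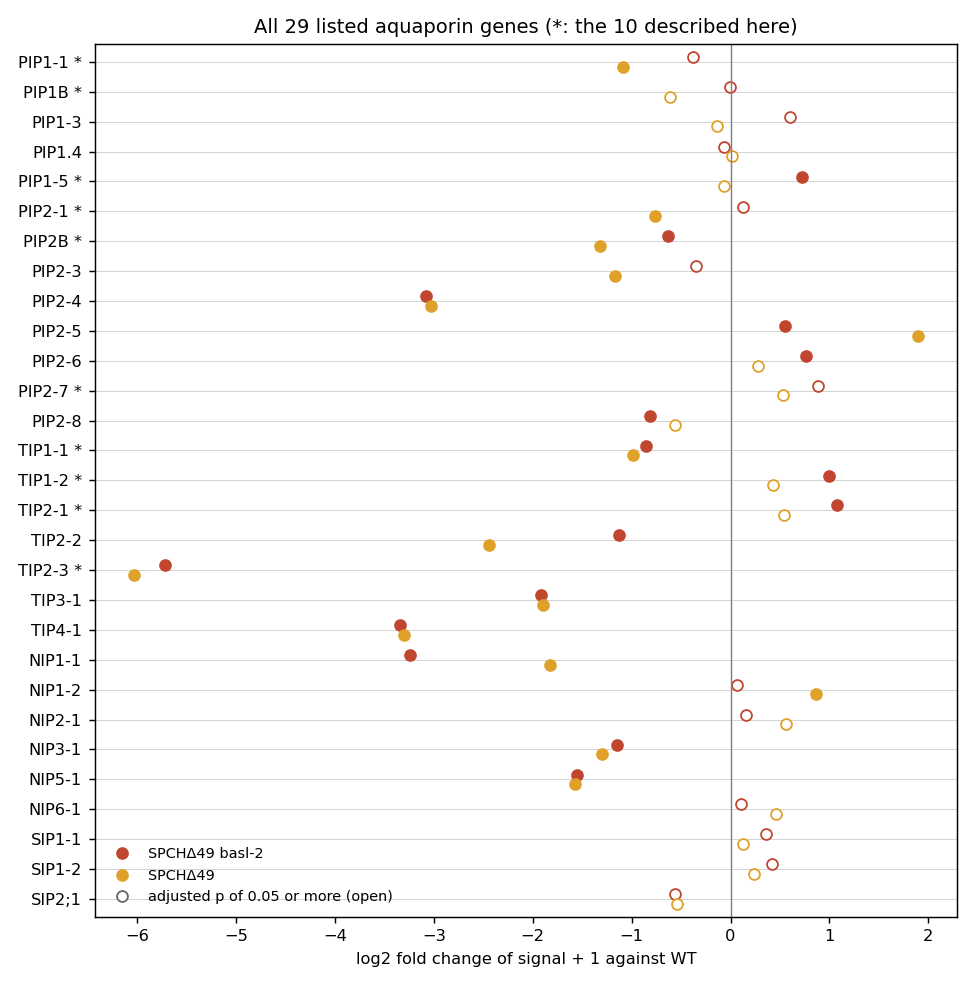
log2 fold change of signal + 1 against WT (horizontal axis) of all 29 listed aquaporin genes in SPCHΔ49 basl-2 and SPCHΔ49; filled points passed a limma adjusted p of 0.05, and an asterisk marks the 10 genes described. TIP2-3, TIP4-1 and PIP2-4 lie at -3.02 or lower in both genotypes, and PIP2-5 is farthest to the right, at 1.90 in SPCHΔ49.

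Pumps and transporters build the solute gradients that water follows. Of 14 plasma membrane and vacuolar pumps and transporters, limma called 1 higher and 2 lower in SPCHΔ49 basl-2 against WT. It called 0 and 2 in SPCHΔ49 against WT (1 and 3 at an unadjusted p under 0.05), and 1 and 0 in SPCHΔ49 basl-2 against SPCHΔ49 (2 and 1 unadjusted). Among all listed genes 12.6% were called higher and 21.6% lower, 9.9% and 17.3%, and 2.05% and 3.36%, in the same order. Unadjusted, 3203 and 4392 of the 18855 passed in SPCHΔ49 against WT, and 1780 and 2340 in SPCHΔ49 basl-2 against SPCHΔ49. AVP1, the proton pump of the vacuole driven by pyrophosphate, had 527, 478 and 500 in SPCHΔ49 basl-2, 377, 319 and 326 in SPCHΔ49, and 273 and 288 in WT. Every SPCHΔ49 basl-2 library lay above every other library. Its log2 fold change was 0.83 (SE 0.11) in SPCHΔ49 basl-2 against WT, at a limma adjusted p of 0.00161, and 0.56 (SE 0.10) in SPCHΔ49 basl-2 against SPCHΔ49, with 0.0241. The second of these was 0.0514 to 0.124 when any library but SPCHΔ49 replicate 1 or SPCHΔ49 basl-2 replicate 3 was left out. CLC-A, a nitrate transporter of the vacuole, was lower than in WT in both, with log2 fold changes of -0.43 (SE 0.13) in SPCHΔ49 basl-2 and -0.68 (SE 0.13) in SPCHΔ49, with adjusted p of 0.0442 and 0.00990. TMT2, a vacuolar sugar carrier, was lower in SPCHΔ49 basl-2 at -0.71 (SE 0.15), and VHA-a3, a subunit of the vacuolar proton ATPase, was lower in SPCHΔ49 at -0.58 (SE 0.15), with limma adjusted p of 0.0111 and 0.0280. Without WT replicate 1 or 2, CLC-A and VHA-a3 lost their calls in SPCHΔ49 (0.0774 to 0.161), as did VHA-a3 without SPCHΔ49 replicate 1 or 2 (0.0736 and 0.0901). CLC-A in SPCHΔ49 basl-2 was at 0.0731 to 0.211 without any library but SPCHΔ49 replicate 1 or 3, and TMT2 at 0.1002 without WT replicate 2.

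Of 8 genes for proteins known to act on aquaporins, limma called 2 higher and 0 lower in SPCHΔ49 basl-2 against WT. It called 0 and 0 in SPCHΔ49 against WT (1 and 0 at an unadjusted p under 0.05), and 1 and 1 in SPCHΔ49 basl-2 against SPCHΔ49. Among all listed genes 12.6% were called higher and 21.6% lower, 9.9% and 17.3%, and 2.05% and 3.36%, in the same order. Unadjusted, 3203 and 4392 of the 18855 passed in SPCHΔ49 against WT. RMA1, a ubiquitin ligase of the endoplasmic reticulum whose pepper counterpart holds PIP2 proteins back from the plasma membrane, had 109, 81.3 and 50.5 in SPCHΔ49 basl-2, 29.3, 34.5 and 20.0 in SPCHΔ49, and 15.9 and 22.6 in WT. Its log2 fold change was 1.96 (SE 0.35) in SPCHΔ49 basl-2 against WT, at a limma adjusted p of 0.00605, and 1.46 (SE 0.31) in SPCHΔ49 basl-2 against SPCHΔ49, with 0.0460. OST1, the guard cell kinase that phosphorylates PIP2-1, was higher in SPCHΔ49 basl-2 than in WT by 0.65 (SE 0.13) on the log2 scale, with 0.00941. In SPCHΔ49 against WT it had 0.25 (SE 0.13), at a limma adjusted p of 0.200. Most guard cell markers were higher in both genotypes, and a link of OST1 with them was not tested. CPK7, a kinase that acts on PIP2 abundance, was lower in SPCHΔ49 basl-2 than in SPCHΔ49 at -0.38 (SE 0.07), at a limma adjusted p of 0.0270. Without WT replicate 1, RMA1 and OST1 against WT were at 0.0679 and 0.0904. In SPCHΔ49 basl-2 against SPCHΔ49, RMA1 was at 0.0783 to 0.141 and CPK7 at 0.0575 to 0.130 when any library but SPCHΔ49 basl-2 replicate 3 was left out.

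The genes most like TIP2-3 over the 8 libraries, by Pearson correlation of log2(signal + 1) among genes with a mean of at least 5, were EXT2, JAL10 and AT5G46900, each at 0.998. Their libraries fall into the same 2 sets as those of TIP2-3, WT and the rest, so the value describes that split. For the summed PIP signal the nearest were ADS3 at 0.989, LPA2 at 0.987 and AT1G78110 at 0.983, and for the summed TIP signal EID1 at 0.993, FATB at 0.992 and AT4G19530 at 0.991. These values are descriptions over libraries that share genotype and scaling.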

How the data were processed

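Whole-seedling RNA-seq of 8 libraries was used. The submitters' processing notes name Trimmomatic 0.38, kallisto 0.44.0 and sleuth (no version). Build, annotation, gene selection and strand handling were not given in the sources used here. Per the file headers, the authors deposited a signal per gene under the name TPM. It is treated as a signal with a log-scale test, since the totals differ between libraries and some exceed the fixed sum of TPM. No count model was run, and all 18855 listed genes reach 1 in every library of at least 1 genotype. limma 3.58.1 (R 4.3.3) compared genotype means of log2(signal + 1) in a fit of all 8 libraries, with variances moderated with an intensity trend, Benjamini-Hochberg adjustment over all genes and a threshold of 0.05. A filter of at least 1 in at least 2 libraries removed 0 genes. On simulated data with 100 genes changed by each fold, the fit found 57% to 68% of genes changed 2-fold and 86% to 91% of those changed 4-fold. False calls were 10 of 153, 12 of 166 and 9 of 165. Far fewer genes were changed there than were called against WT in the real data, so these rates may not carry over. Sums and ratios carry no test. The genes and lists were chosen with earlier results of these data known. Named beside the 10 genes were PIP2-3 and, per list and direction, up to 3 genes past the threshold with the lowest adjusted p, and the 3 genes most like TIP2-3 and each sum. Promoters, coding sequences and shared words were read by locus from TAIR10.1, in which 18754 listed identifiers were found. Coding sequences were aligned with Biopython 1.88 at no cost for gaps at the ends, and identity was counted over the aligned bases only. No protein sequences were used. Alternatives were other pseudocounts, filters, scalings, a replicate block, 2-group fits, no intensity trend, and each library left out.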

Additional observations from a re-analysis of the deposited data

How the results depend on the processing

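Over 18 settings, the calls for PIP1-1, PIP2B and TIP2-3 in SPCHΔ49 against WT, and for PIP2B and TIP2-3 in SPCHΔ49 basl-2 against WT, kept their side and direction. For the genes that did not, the cause was not tested beyond the fewer samples of some fits. Higher genes in SPCHΔ49 against WT numbered 1 (TIP1-2) after quantile normalization and after equal totals. Higher genes in SPCHΔ49 basl-2 against SPCHΔ49 numbered 1 in a 2-group fit, where TIP2-3 failed the filter and 2.76% of genes were called, against 10.1% after equal totals. With 1 library left out, the share called ran from 6.18% to 29.9% in SPCHΔ49 against WT, 8.96% to 37.4% in SPCHΔ49 basl-2 against WT and 0.801% to 6.59% in SPCHΔ49 basl-2 against SPCHΔ49. Members called lower then numbered 2 to 5 in SPCHΔ49 against WT and 1 to 3 in SPCHΔ49 basl-2 against WT, and members called higher 0 to 3 in SPCHΔ49 basl-2 against WT and 0 to 4 in SPCHΔ49 basl-2 against SPCHΔ49. With 1 WT library left, its spread is assumed to be that of the other genotypes, and TIP2-3 fails the filter. An alternative with no filter, chosen after seeing the data, gave -6.04 and -6.03 in SPCHΔ49 and -5.72 in SPCHΔ49 basl-2.

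Some fold changes near 0 changed sign. PIP1-5 in SPCHΔ49 against WT was 0.22 after quantile normalization, 0.11 after equal totals, 0.0047 with a replicate block, and 0.055 without WT replicate 1, 0.025 without SPCHΔ49 replicate 3 and as low as -0.19 without WT replicate 2. PIP1B in SPCHΔ49 basl-2 against WT was 0.043 after median-of-ratios scaling, 0.18 with the block, 0.013 without WT replicate 1, 0.21 without SPCHΔ49 basl-2 replicate 3, -0.14 without SPCHΔ49 basl-2 replicate 2 and as low as -0.21 after quantile normalization. PIP2-1 in SPCHΔ49 basl-2 against WT was -0.063 after quantile normalization, and TIP1-1 in SPCHΔ49 basl-2 against SPCHΔ49 was -0.011 after it and -0.069 after equal totals. Quantile normalization also took PIP2-1 in SPCHΔ49 basl-2 against SPCHΔ49 to a limma adjusted p of 0.0673. Equal totals moved the median of all genes to 0.15 in SPCHΔ49 against WT and -0.20 in SPCHΔ49 basl-2 against SPCHΔ49. Shares called higher and lower became 14.7% and 14.4% (quantile) or 19.2% and 12% (equal totals) in SPCHΔ49 against WT, 16.6% and 17.3% (quantile) in SPCHΔ49 basl-2 against WT, and 1.41% and 8.73% (equal totals) in SPCHΔ49 basl-2 against SPCHΔ49.

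Deviations from the genotype mean of same-numbered SPCHΔ49 and SPCHΔ49 basl-2 libraries correlated at -0.216, -0.118 and 0.783. SPCHΔ49 replicate 1 went with SPCHΔ49 basl-2 replicate 2 at 0.802. Deviations within a genotype add up to 0, so these correlations depend on each other and cannot settle whether replicate numbers pair the samples. With the block, PIP2-7 passed in SPCHΔ49 basl-2 against WT (1.22, limma adjusted p 0.0180) and PIP1B in SPCHΔ49 basl-2 against SPCHΔ49 (0.61, 0.0399). Of the 19 other aquaporins, 4 were called higher in SPCHΔ49 against WT after quantile normalization, where 14.7% of all genes were. Unknown depth limits how precise low values such as those of TIP2-3 are.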
